A study of Saccharomyces cerevisiae with 4 samples.

Results

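The genes described here encode 48 subunits of the chromatin remodelling machines of budding yeast, Saccharomyces cerevisiae. They were taken from a list of the subunits of Swi/Snf, RSC, ISWI, INO80 and SWR1, plus the single-protein remodelers CHD1 and FUN30, and all 48 were found among the 6659 genes with RNA values. The list held 9 genes for Swi/Snf, 14 for RSC, 3 for proteins shared by those complexes, 6 for ISWI, 7 for INO80, 7 for SWR1, and CHD1 and FUN30. The rule names subunits and uses no measured value, although it was set with earlier results of these data known. All 48 members passed the filter, a 4-library mean of 1 RPKM (reads scaled to gene length and to library depth), as did 6520 genes in all.

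The study sequenced rRNA-depleted RNA of 4 haploid strains, 1 library for each. The strains were ume6∆snf2∆, in which KanMX replaces UME6 and NatMX replaces SNF2, ume6∆ (KanMX), snf2∆ (NatMX) and wild type (WT). All were of the BY4741/2 background, were labelled his-, ura- and leu-, and grew in YPD with dextrose and were taken in mid-log phase, at an optical density of 0.5 to 0.6. Snf2 is the ATPase of Swi/Snf, and Ume6 is a DNA-binding repressor of early meiotic genes. Differences between strains therefore lack any replicate and were not tested. Sizes are given with exact 95% Clopper-Pearson intervals from recovered reads, which cover counting error only, and "rose" or "fell" means at least 2-fold on the log2(RPKM + 1) scale in these libraries. That scale understates changes of low genes.

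Chromatin remodelers are ATP-driven machines that slide, evict, space or restructure nucleosomes. Swi/Snf and the more abundant RSC open promoters and are built from related subunits, and RSC is needed for growth. ISWI and Chd1 space nucleosomes, INO80 moves them and acts on those next to promoters, and SWR1 exchanges histone H2A for the variant H2A.Z. The catalytic subunits all belong to the Snf2 family of ATPases, so that the loss of Snf2 removes a single member of a family whose other members are still encoded.

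The deleted genes followed the strain labels. In bulk RNA of this kind, fewer cells with a transcript and less RNA per cell cannot be told apart. SNF2 (YOR290C) lies on chromosome XV at 855147 to 860258 in the R64 assembly, the sequence behind sacCer3, from which all positions here are taken. It had 0.157 RPKM in ume6∆snf2∆, 36.9 in ume6∆, 0.107 in snf2∆ and 67.9 in WT, and 14 reads lay in the gene in each library without it. UME6 had 0.137 RPKM in ume6∆snf2∆, 0.0132 in ume6∆, 19.6 in snf2∆ and 34.6 in WT. The libraries also differed outside the deleted genes. Of 6 a-cell marker genes, the range was 6.87 to 20.7 RPKM in ume6∆snf2∆, 40.7 to 296 in ume6∆, 0.999 to 7.77 in snf2∆ and 56.8 to 416 in WT. The 4 alpha-cell markers ran from 151 to 7498 RPKM in ume6∆snf2∆, 3.80 to 11.6 in ume6∆, 145 to 2308 in snf2∆ and 2.46 to 25.1 in WT. Both comparisons of a strain without Snf2 with a strain that has it therefore also contrast alpha-cell with a-cell expression, as does ume6∆snf2∆ over WT, and these cannot be told apart. In ume6∆ over WT and in ume6∆snf2∆ over snf2∆ both strains have the higher levels in the same marker class, though single markers moved. In ume6∆ over WT 1 of 6 a-cell markers rose and 1 of 4 alpha-cell markers fell, and in ume6∆snf2∆ over snf2∆ 5 of 6 a-cell and 2 of 4 alpha-cell markers rose. None of the 10 markers was listed at 0, and their part in the results was not tested. MET17, which makes homocysteine, had 2350.2 RPKM in ume6∆snf2∆ and 0.817 to 1.12 elsewhere, while LYS2, a lysine pathway gene, had 0.385 RPKM in that strain and at least 91.0 in the rest. Every comparison with ume6∆snf2∆, and each deletion effect in the absence of the other gene, therefore also contrasts these MET17 and LYS2 levels, which cannot be told apart from the deletions. Among the other nutritional markers, LEU2 and URA3 had at most 0.105 RPKM. HIS3 had 301 RPKM in ume6∆snf2∆, 82.7 in ume6∆, 310 in snf2∆ and 186 in WT, although all strains were labelled his-. It fell in ume6∆ over WT (log2 -1.16) and rose in ume6∆snf2∆ over ume6∆ (log2 1.85), and its part was not tested.

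Remodeler genes formed a band of moderate levels in each library. The median of the 48 was 52.5 RPKM in ume6∆snf2∆, 38.2 in ume6∆, 44.3 in snf2∆ and 50.8 in WT, beside all-gene medians of 41.8, 31.8, 36.8 and 40.6 RPKM in the same order of strains. In WT, 35 of the 48 lay above the all-gene median level. The lowest WT level was that of SNF12 (16.0 RPKM, percentile 17.3 of all genes), and the highest that of RSC8 (117 RPKM, percentile 81.5). RSC genes had the higher median in every library when set against Swi/Snf genes. For RSC it was 49.6 RPKM in ume6∆snf2∆, 42.7 in ume6∆, 43.0 in snf2∆ and 61.0 in WT, and for Swi/Snf 34.9, 36.9, 31.9 and 52.8 RPKM in these strains. The Swi/Snf medians of ume6∆snf2∆ and snf2∆ include the deleted SNF2, at 0.157 and 0.107 RPKM, which lowers them. SWR1 genes had low levels in WT (median 29.8 RPKM, from VPS71 at 21.6 to SWR1 itself at 51.7), and the 7 INO80 genes had a WT median of 49.9 RPKM. The 3 subunits shared by Swi/Snf and RSC sat close together in WT, at 48.5 RPKM for ARP7, 54.5 for ARP9 and 53.0 for RTT102.

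**Figure D1:**
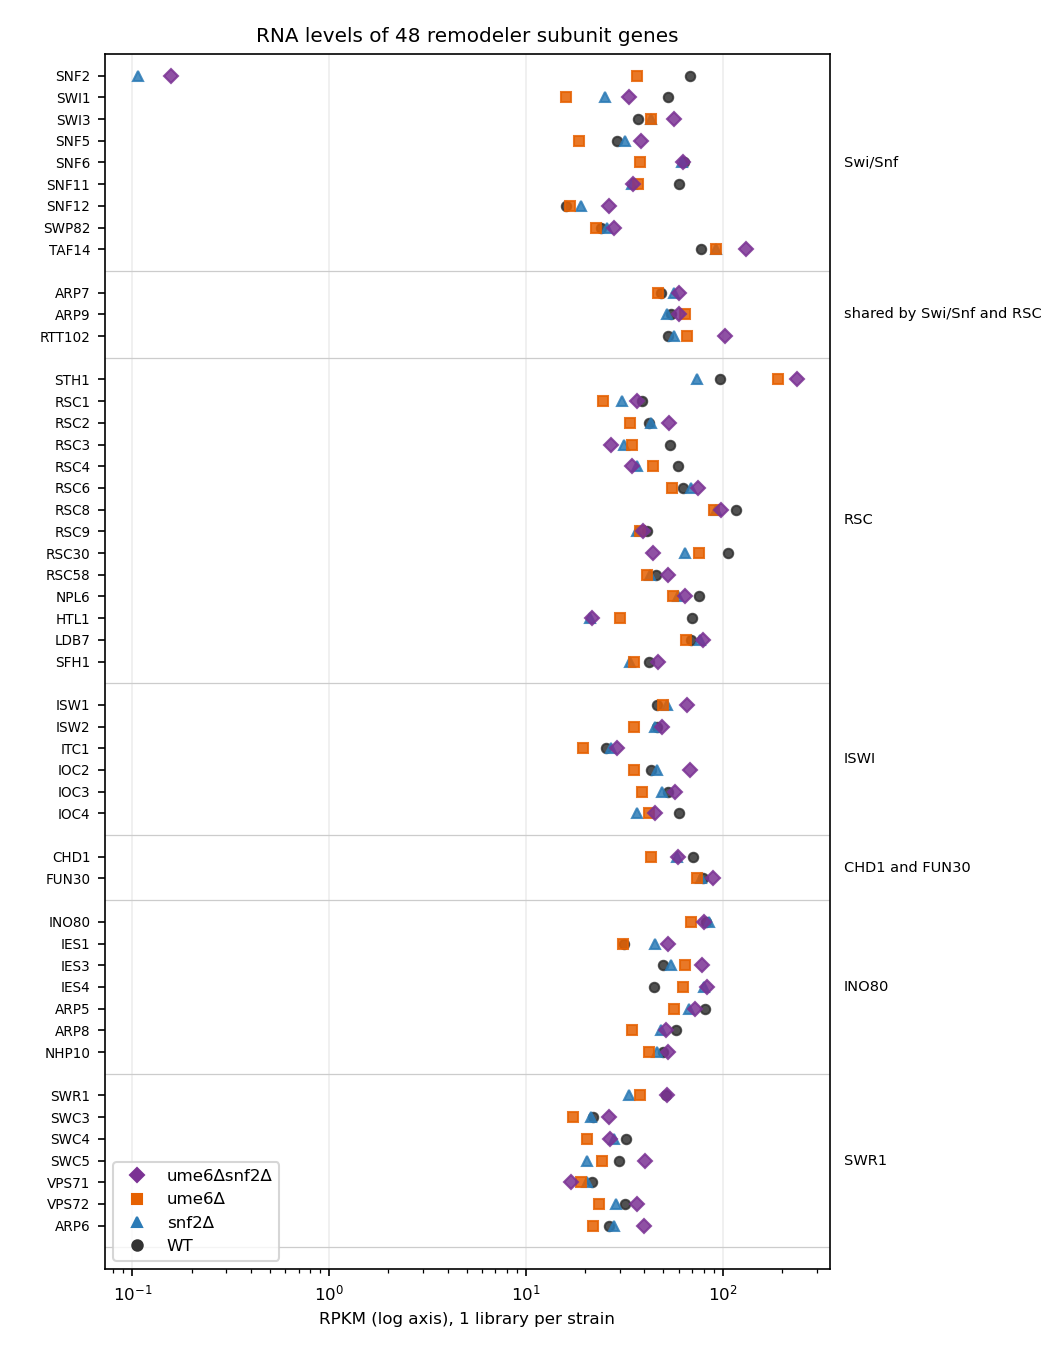
RNA level of each of the 48 genes in RPKM (log axis), grouped by complex, with 1 point per library for ume6∆snf2∆, ume6∆, snf2∆ and WT. SNF2 falls to 0.157 and 0.107 RPKM in the strains that lack it, while STH1 reaches 238 RPKM in ume6∆snf2∆ and 192 in ume6∆.

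Most of these genes varied little between strains. The ratio of the highest to the lowest library on the log2(RPKM + 1) scale reached 2-fold in 6 of 48 members, or 12.5%, against 39.2% of all genes. The share was 35.7% of genes whose 4-library mean reached 10 RPKM. The 6 were SNF2, SWI1, SNF5, STH1, RSC30 and HTL1, all from Swi/Snf or RSC. The median range was 0.64 for the members and 0.86 for all genes. RSC9, an RSC subunit, was the steadiest of the 48, at 39.3 RPKM in ume6∆snf2∆, 38.2 in ume6∆, 36.8 in snf2∆ and 41.1 in WT. FUN30, which also acts in DNA end resection, had 88.8, 73.8, 77.8 and 79.9 RPKM in the same strains, and the INO80 ATPase gene had 80.5, 69.1, 85.2 and 82.3 RPKM.

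In snf2∆ over WT, which asks what differs without Snf2, 0 of 48 members rose, against 3.31% of all genes, and 3 fell, against 7.96%. These were SNF2 itself, SWI1 and HTL1. In the same comparison 6 of 6 a-cell markers fell and 4 of 4 alpha-cell markers rose. The median change of the members was -0.08 and that of all genes -0.11. Scaling by the median ratio over genes brings SWI1 to -0.93 and out of the count, as does a pseudocount of 5 RPKM. In ume6∆ over WT, 0 members rose against 4.59% of all genes, and 2 fell, SWI1 and HTL1, against 15.2%. The member median of -0.29 was close to the all-gene median of -0.30. With median ratio scaling STH1 rose, at 1.27, and HTL1 left the count at -0.88, so the split of 0 higher and 2 lower became 1 and 1. In ume6∆snf2∆ over WT, 1 member rose, STH1, against 10.4% of all genes. SNF2, RSC30 and HTL1 fell there, 3 of 48 against 9.97% of all genes, and so did 6 of 6 a-cell markers, while 4 of 4 alpha-cell markers rose. The member median was 0.14 and the all-gene median 0.06. With median ratio scaling RSC3 joined the genes that fell, at -1.03, so the split of 1 higher and 3 lower became 1 and 4.

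Across the strains without Ume6, in ume6∆snf2∆ over ume6∆, 2 members rose, SWI1 and SNF5, against 11.1% of all genes, and 1 fell, SNF2, against 3.45%. The a-cell markers again fell in 6 of 6 and the alpha-cell markers rose in 4 of 4. The median of the members was 0.39 and that of all genes 0.35. With median ratio scaling SWI1 stood at 0.67 and SNF5 at 0.66, both short of 2-fold, while RSC30 at -1.11 fell, so the split of 2 higher and 1 lower became 0 and 2. In ume6∆snf2∆ over snf2∆, STH1 was the 1 member that rose, against 8.13% of all genes, and 0 fell, against 2.38%. The medians were 0.18 for members and 0.14 for all genes. Comparisons that share a library are not independent of each other. Without SNF2, whose loss is the deletion itself, the numbers that fell were 2, 2 and 0 in the comparisons of snf2∆ with WT, ume6∆snf2∆ with WT, and ume6∆snf2∆ with ume6∆.

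**Figure D2:**
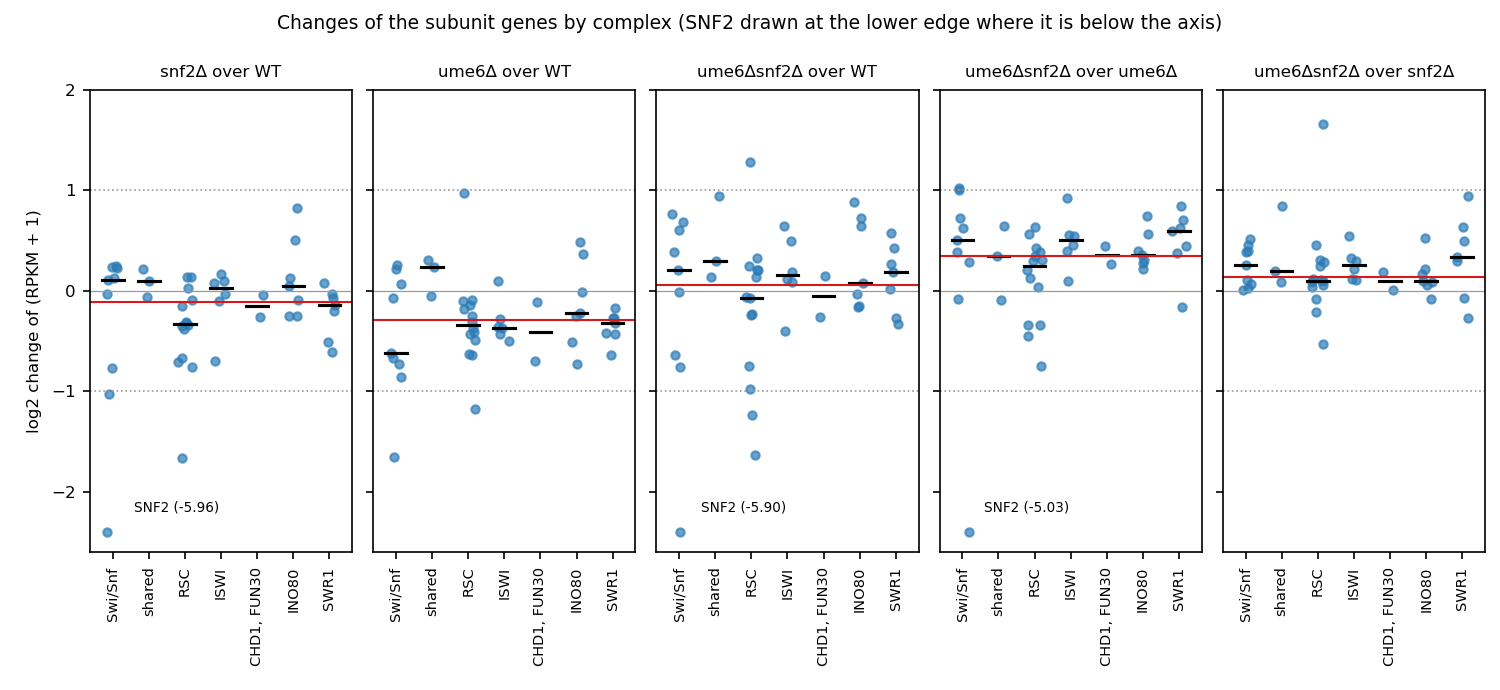
Log2 changes of (RPKM + 1) for the 48 genes, by complex, in each of 5 comparisons; each point is a gene, black bars are medians of a complex, the red line is the all-gene median and dotted lines mark 2-fold. Most points lie between the dotted lines, with STH1 above 1 in both comparisons of ume6∆snf2∆ with a strain that has UME6, and SNF2, where it lies below the axis, drawn at the edge with its value.

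STH1 (YIL126W, chromosome IX, 117992 to 122071, plus strand), the essential ATPase of RSC and the paralogue of SNF2, was the member with the highest level in both strains without UME6. It had 238 RPKM in ume6∆snf2∆, 192 in ume6∆, 74.4 in snf2∆ and 97.4 in WT, on 7786 to 23602 reads. Both libraries without UME6 were thus above both libraries with it. The ratio was 1.97 for ume6∆ over WT (interval 1.92 to 2.01, log2 0.97) and 3.19 for ume6∆snf2∆ over snf2∆ (interval 3.11 to 3.28, log2 1.66). Those comparisons share no library. Between strains without and with SNF2 the STH1 ratio was 0.763 for snf2∆ over WT (interval 0.741 to 0.786) and 1.24 for ume6∆snf2∆ over ume6∆ (interval 1.21 to 1.26). The second has a log2 change of 0.31 that becomes -0.05 with median ratio scaling.

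The 300 bases before the STH1 start codon, at chrIX:117692-117991 on the plus strand of R64, are shown because STH1 and its upstream neighbour both stood high without Ume6. Capitals mark CACGTG, the core site of factors such as Cbf1 and Pho4.
STH1: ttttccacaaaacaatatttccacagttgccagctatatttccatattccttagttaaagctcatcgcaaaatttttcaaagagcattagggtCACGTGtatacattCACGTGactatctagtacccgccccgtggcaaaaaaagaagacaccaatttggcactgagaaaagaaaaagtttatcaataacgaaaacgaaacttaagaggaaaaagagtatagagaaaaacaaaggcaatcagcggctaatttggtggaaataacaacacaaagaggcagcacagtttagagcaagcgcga
CACGTG occurs 2 times here, starting 207 and 193 bases before the start codon. It was looked up after this sequence had been seen, and being palindromic it reads the same on both strands. The motif is in the same window of 3.61% of 5895 protein-coding genes and of 2 of the 48 members, the other being ARP6. The core of the Ume6 site URS1, GGCGGC on either strand, was not in this window of STH1.

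RRT14, on the opposite strand, starts 347 bases from STH1 and had 333 RPKM in ume6∆snf2∆, 279 in ume6∆, 77.7 in snf2∆ and 67.5 in WT. Its log2 change was 2.03 for ume6∆ over WT and 2.08 for ume6∆snf2∆ over snf2∆. This divergent neighbour therefore followed the order of STH1 between strains with and without UME6, at a larger size. On the other side of STH1, KGD1, a subunit of alpha-ketoglutarate dehydrogenase, had 167 RPKM in ume6∆snf2∆, 114 in ume6∆, 102 in snf2∆ and 205 in WT. The library kit named in the labels, TruSeq V2, does not mark strand.

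SWI1 (YPL016W, chromosome XVI, 521014 to 524958, plus strand), a large Swi/Snf subunit that contacts activators, was the Swi/Snf gene, apart from SNF2, with the widest range. It had 33.5 RPKM in ume6∆snf2∆, 16.0 in ume6∆, 25.3 in snf2∆ and 52.8 in WT. Both single deletions lay below the double deletion, and all 3 lay below WT. The ratio was 0.479 in snf2∆ over WT (interval 0.457 to 0.502, log2 -1.03) and 0.304 in ume6∆ over WT (interval 0.288 to 0.32, log2 -1.66). It was 2.09 in ume6∆snf2∆ over ume6∆ (interval 1.96 to 2.22, log2 1.02) and 1.32 in ume6∆snf2∆ over snf2∆ (interval 1.25 to 1.4). IRC15, a microtubule-associated protein gene that starts 780 bases away on the opposite strand, had 48.9 RPKM in ume6∆snf2∆, 53.3 in ume6∆, 10.1 in snf2∆ and 28.7 in WT, a different order from that of SWI1.

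Only SWI1 and SNF2 of the 48 had GGCGGC, on either strand, in the 300 bases before the start codon, a share of 4.17% beside 5.29% of 5895 protein-coding genes. In the 500 bases before the start codon the share was 4.17% of members and 9.64% of genes. Both promoters are shown because they hold the match. In ume6∆ over WT the all-gene median log2 change was -0.30. Among Swi/Snf genes without a match in the 300 bases, SNF5, SNF6 and SNF11 lay below it, at -0.62, -0.73 and -0.67. SWI3, SNF12, SWP82 and TAF14, also without a match, lay above it, at 0.22, 0.06, -0.07 and 0.26. Whether the match has a part in the levels of SWI1 and SNF2 was not tested. The SNF2 window is chrXV:860259-860558, minus strand, and the SWI1 window chrXVI:520714-521013, plus strand, both R64, with the match in capitals.
SNF2: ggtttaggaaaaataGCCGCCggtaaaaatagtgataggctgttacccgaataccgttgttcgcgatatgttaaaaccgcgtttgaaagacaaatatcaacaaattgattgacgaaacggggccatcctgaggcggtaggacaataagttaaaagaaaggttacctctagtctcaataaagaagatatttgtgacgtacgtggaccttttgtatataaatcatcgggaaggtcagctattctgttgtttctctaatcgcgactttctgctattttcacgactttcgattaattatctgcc
SWI1: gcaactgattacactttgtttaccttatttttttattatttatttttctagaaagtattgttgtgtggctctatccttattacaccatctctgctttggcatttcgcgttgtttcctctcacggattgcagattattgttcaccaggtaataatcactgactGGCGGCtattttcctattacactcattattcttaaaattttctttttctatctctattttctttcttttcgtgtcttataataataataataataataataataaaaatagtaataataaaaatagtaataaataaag
The match starts 285 bases before the start codon in SNF2, as GCCGCC, and 138 bases before it in SWI1. SNF2, measured in ume6∆ and WT, had a ratio of 0.543 (interval 0.526 to 0.562, log2 -0.86). A longer form of URS1, which contains the core, was in 0 of 48 windows and in 0.441% of all.

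HTL1 (YCR020W-B, chromosome III, 155320 to 155556, plus strand), the smallest RSC gene listed, had 21.8 RPKM in ume6∆snf2∆, 30.2 in ume6∆, 21.2 in snf2∆ and 69.6 in WT, on 90, 216, 129 and 457 reads. All 3 deletion strains were below WT. Ratios to WT were 0.313 in ume6∆snf2∆ (interval 0.247 to 0.394), 0.434 in ume6∆ (interval 0.368 to 0.512) and 0.305 in snf2∆ (interval 0.249 to 0.372). The neighbours of HTL1 differed from each other. MAK31, of the NatC acetyltransferase, 223 bases away and divergent, had 52.7 RPKM in ume6∆snf2∆, 37.3 in ume6∆, 46.0 in snf2∆ and 43.5 in WT. HSP30, a stress-induced membrane protein gene that converges on HTL1 from 552 bases, had 14.7, 12.3, 13.3 and 39.6 RPKM in these strains, also highest in WT.

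**Figure D3:**
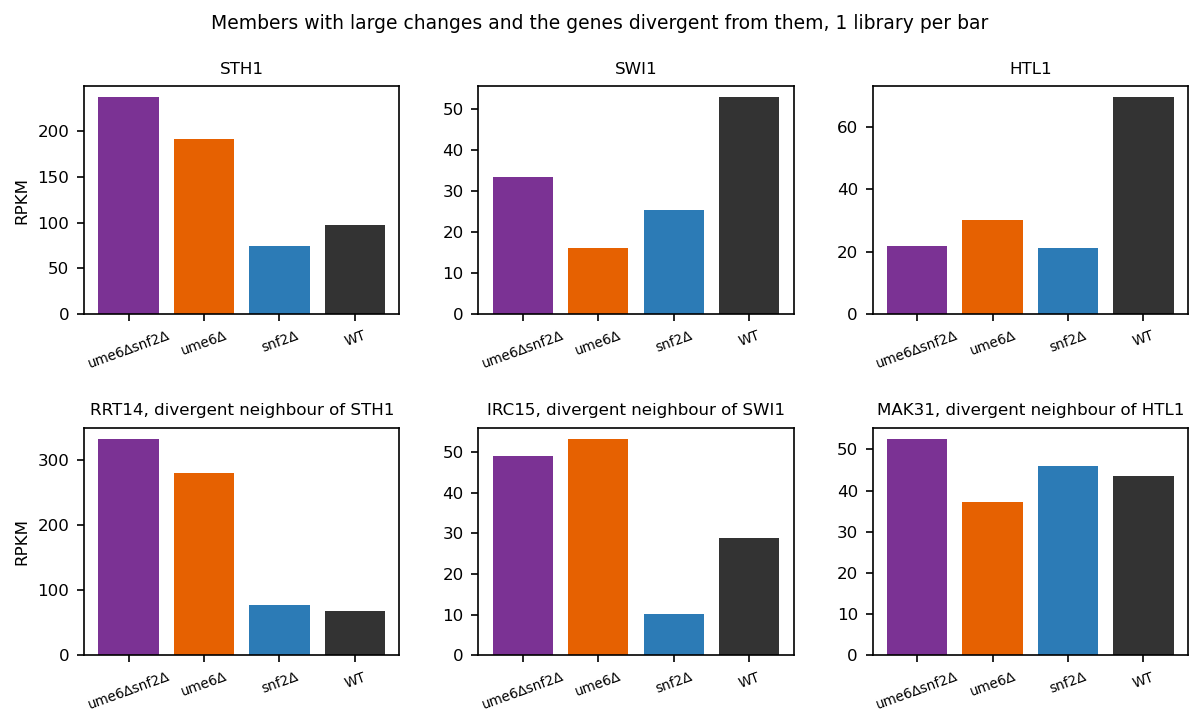
RPKM of STH1, SWI1 and HTL1 (upper row) and of the gene divergent from each (lower row), with 1 bar per library in the order ume6∆snf2∆, ume6∆, snf2∆ and WT. STH1 and RRT14 are both higher in the strains without UME6, whereas IRC15 and MAK31 do not follow SWI1 and HTL1.

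RSC30 (YHR056C, chromosome VIII, 215183 to 217834, minus strand) and its paralogue RSC3 encode zinc cluster proteins that bind DNA for RSC. RSC30 had 44.4 RPKM in ume6∆snf2∆, 75.5 in ume6∆, 64.7 in snf2∆ and 106 in WT, with a ratio to WT of 0.418 in ume6∆snf2∆ (interval 0.398 to 0.439). The value is uncertain, because 39.2% of the 50-base windows of RSC30 also occur elsewhere in the genome. The repeated stretch is bases 1584 to 2652 of the gene, counted from the start codon, and its copy is YHR054C in the CUP1 repeat of the same chromosome, at 213185 to 214253. How reads with more than 1 place were counted is not given in the sources used here. YHR054C had 45.5 RPKM in ume6∆snf2∆, 116 in ume6∆, 81.8 in snf2∆ and 142 in WT, the order of RSC30, and CUP1-2, the copper metallothionein gene beside RSC30, had 821, 1716, 627 and 1665 RPKM. RSC3, which does not share such a stretch, had 27.1 RPKM in ume6∆snf2∆, 34.5 in ume6∆, 31.5 in snf2∆ and 54.1 in WT. Its ratio to WT was 0.5 in ume6∆snf2∆ (interval 0.469 to 0.533, log2 -0.97), short of the threshold on the log2(RPKM + 1) scale.

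The other RSC genes stayed within 2-fold of WT in each strain. RSC8, the RSC counterpart of SWI3, had 98.5 RPKM in ume6∆snf2∆, 90.3 in ume6∆, 92.4 in snf2∆ and 117 in WT. RSC4, which carries tandem bromodomains, had 34.6, 44.2, 36.8 and 59.1 RPKM. The bromodomain proteins Rsc1 and Rsc2 occupy alternative forms of RSC. RSC1 had 36.7, 24.5, 30.8 and 38.7 RPKM in the same strains, and RSC2 53.3, 33.9, 43.1 and 42.3. RSC2 overlaps YLR358C on the opposite strand, and reads of the 2 genes cannot be told apart. SFH1, RSC6, RSC58, NPL6 and LDB7 had ranges of 0.30 to 0.45 on the log2 scale between their highest and lowest library. For RSC as a whole the median change was -0.33 in snf2∆ over WT, against -0.11 for all genes, and 4 of its 14 genes lay above that all-gene median.

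Among the remaining Swi/Snf genes, SNF5, a core subunit, had 38.3 RPKM in ume6∆snf2∆, 18.6 in ume6∆, 31.9 in snf2∆ and 29.2 in WT. Its ratio was 2.06 in ume6∆snf2∆ over ume6∆ (interval 1.93 to 2.21) and 0.637 in ume6∆ over WT (interval 0.596 to 0.68). SWI3, a scaffold subunit, had 56.7 RPKM in ume6∆snf2∆, 43.1 in ume6∆, 43.3 in snf2∆ and 37.0 in WT. SNF12 had 26.4, 16.7, 19.0 and 16.0 RPKM, SWP82 28.0, 22.8, 25.9 and 24.0, and SNF6 63.1, 37.9, 62.1 and 63.7. SNF11, whose product binds Snf2 directly, had 34.9 RPKM in ume6∆snf2∆, 37.1 in ume6∆, 34.8 in snf2∆ and 59.8 in WT, highest in WT. TAF14, a YEATS-domain protein that also belongs to TFIID, TFIIF and INO80, had 132, 92.6, 92.0 and 77.3 RPKM. The lowest ratio to WT of any Swi/Snf gene other than SNF2 and SWI1 was 0.582, for SNF11 in snf2∆. The Swi/Snf median was -0.62 in ume6∆ over WT, against -0.30 for all genes, with 4 of 9 genes above the all-gene median. The median of the 8 genes other than SNF2 was -0.35, a value between SNF5 at -0.62 and SWP82 at -0.07. Leaving out SWI1, SNF6 or SNF11 in place of SNF2 would move the median alike, so this shift is not particular to SNF2. In snf2∆ over WT the Swi/Snf median was 0.10, against -0.11, and 0.12 without SNF2.

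The proteins shared by Swi/Snf and RSC form an actin-related pair, Arp7 and Arp9, with Rtt102 bound to it. ARP7 had 59.8 RPKM in ume6∆snf2∆, 46.8 in ume6∆, 56.4 in snf2∆ and 48.5 in WT, and ARP9 had 60.0, 64.2, 52.2 and 54.5. RTT102 had 103 RPKM in ume6∆snf2∆, 65.7 in ume6∆, 56.9 in snf2∆ and 53.0 in WT, a ratio to WT of 1.94 in ume6∆snf2∆ (interval 1.76 to 2.15, log2 0.95). ARP9 and TAF14 are the members with introns in the splicing table, where the authors give a splicing efficiency as a fraction with no depth. TAF14 had 0.686 in ume6∆snf2∆, 0.705 in ume6∆, 0.705 in snf2∆ and 0.629 in WT, and ARP9 had 0.355, 0.374, 0.338 and 0.427. The medians over all introns were 0.688, 0.693, 0.701 and 0.675 in the same strains. WT was the lowest library for TAF14 and the highest for ARP9. The snf2∆ minus WT difference was 0.0756 for TAF14 and -0.0892 for ARP9, at percentiles 84.98 and 3.41 of 293 introns. In ume6∆snf2∆ and ume6∆, each minus WT, ARP9 lay at percentiles 10.2 and 8.11, and TAF14 at 77.9 and 88.2.

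ISWI, CHD1 and FUN30 genes had no member that rose or fell in any of the 5 comparisons at 2-fold. Among all genes 3.31% to 11.1% rose and 2.38% to 15.2% fell in these comparisons. ISW1, the ATPase of Isw1a and Isw1b, had 65.9 RPKM in ume6∆snf2∆, 49.7 in ume6∆, 52.3 in snf2∆ and 46.4 in WT. ISW2, its paralogue, which works with Itc1, had 49.1, 35.5, 45.2 and 46.3 RPKM, and ITC1 29.0, 19.5, 26.9 and 25.4. IOC2 and IOC4, the partners of Isw1b, differed in which libraries were high. IOC2 had 67.9 RPKM in ume6∆snf2∆, 35.4 in ume6∆, 46.3 in snf2∆ and 43.1 in WT, and IOC4 had 45.3, 42.3, 36.6 and 60.0. IOC3, of Isw1a, had 57.4, 38.9, 49.1 and 52.7 RPKM. CHD1, a chromodomain remodeler that spaces nucleosomes over genes, had 59.1 RPKM in ume6∆snf2∆, 43.1 in ume6∆, 58.8 in snf2∆ and 70.8 in WT. Its ratio was 0.609 in ume6∆ over WT (interval 0.589 to 0.63, log2 -0.70), where the all-gene median was -0.30 on the log2 scale.

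INO80 genes likewise had 0 calls, beside all-gene shares of 3.31% to 11.1% that rose and 2.38% to 15.2% that fell. The closest was IES4, with 83.2 RPKM in ume6∆snf2∆, 63.2 in ume6∆, 80.2 in snf2∆ and 44.8 in WT, lowest in WT. Its ratio to WT was 1.86 in ume6∆snf2∆ (interval 1.63 to 2.12) and 1.79 in snf2∆ (interval 1.59 to 2.02). IES1 had 52.8, 31.1, 45.2 and 31.5 RPKM in the 4 strains, so that both libraries without SNF2 were above both with it, and IES3 had 78.5, 64.7, 54.5 and 49.9. The actin-related subunits ARP5 and ARP8 had 72.7 and 51.6 RPKM in ume6∆snf2∆, 56.6 and 34.5 in ume6∆, 67.8 and 48.7 in snf2∆, and 81.2 and 58.0 in WT. NHP10, an HMG-box subunit, ranged from 42.4 to 52.6 RPKM. INO80 overlaps YGL149W on the opposite strand.

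The SWR1 ATPase gene had 52.4 RPKM in ume6∆snf2∆, 38.2 in ume6∆, 33.4 in snf2∆ and 51.7 in WT, so both single deletions were below the other 2 libraries. SWC5 had 40.5, 24.4, 20.6 and 29.8 RPKM, a ratio of 1.97 in ume6∆snf2∆ over snf2∆ (interval 1.75 to 2.22, log2 0.94). ARP6, an actin-related subunit, had 40.0, 21.9, 28.1 and 26.6 RPKM, and VPS72, which binds the variant histone H2A.Z, 36.6, 23.4, 28.8 and 31.9. SWC3 and SWC4, the second also a subunit of the NuA4 acetyltransferase, had 26.5 and 26.7 RPKM in ume6∆snf2∆, 17.3 and 20.4 in ume6∆, 21.4 and 28.1 in snf2∆, and 21.9 and 32.4 in WT. VPS71 alone of the 7 was lowest in ume6∆snf2∆, at 16.9 RPKM, with 19.1 in ume6∆, 20.5 in snf2∆ and 21.6 in WT. In ume6∆snf2∆ over ume6∆ the SWR1 median was 0.59, against 0.35 for all genes. In that comparison 0 of the 7 genes rose or fell, against 11.1% and 3.45% of all genes.

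Paralogue ratios within a library do not depend on library scaling. SNF2 over STH1 was 0.000662 in ume6∆snf2∆, 0.192 in ume6∆ (interval 0.187 to 0.198), 0.00144 in snf2∆ and 0.697 in WT (interval 0.678 to 0.717). The lower ratio in ume6∆ combined less SNF2 with more STH1. The proteins are 1703 and 1359 residues long and 49.5% identical over their 1261 aligned residues. In the other pairs of Swi/Snf and RSC, the RSC gene had the higher level in every library. SWI3 over RSC8 was 0.576 in ume6∆snf2∆, 0.478 in ume6∆, 0.469 in snf2∆ and 0.316 in WT, and these proteins are 33.8% identical where aligned. The SNF12 over RSC6 ratio was 0.352, 0.302, 0.273 and 0.254 in that order, and SWP82 over NPL6 was 0.434, 0.409, 0.438 and 0.317, so WT had the lowest value in all 3 pairs. For SNF5 over SFH1 the ratio was 0.82 in ume6∆snf2∆, 0.524 in ume6∆, 0.943 in snf2∆ and 0.69 in WT, and the interval in snf2∆, 0.877 to 1.01, included 1.

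Ratios were also taken between paralogues of the same complex or class. RSC1 over RSC2, 50.1% identical where aligned, was 0.688 in ume6∆snf2∆, 0.723 in ume6∆, 0.713 in snf2∆ and 0.914 in WT, with all 3 deletion strains below the WT interval of 0.869 to 0.962. ISW1 over ISW2, 53.3% identical, was 1.34 in ume6∆snf2∆, 1.4 in ume6∆, 1.16 in snf2∆ and 1.0 in WT. RSC3 over RSC30 was 0.61, 0.457, 0.487 and 0.51 in these strains, subject to the shared sequence of RSC30.

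**Figure D4:**
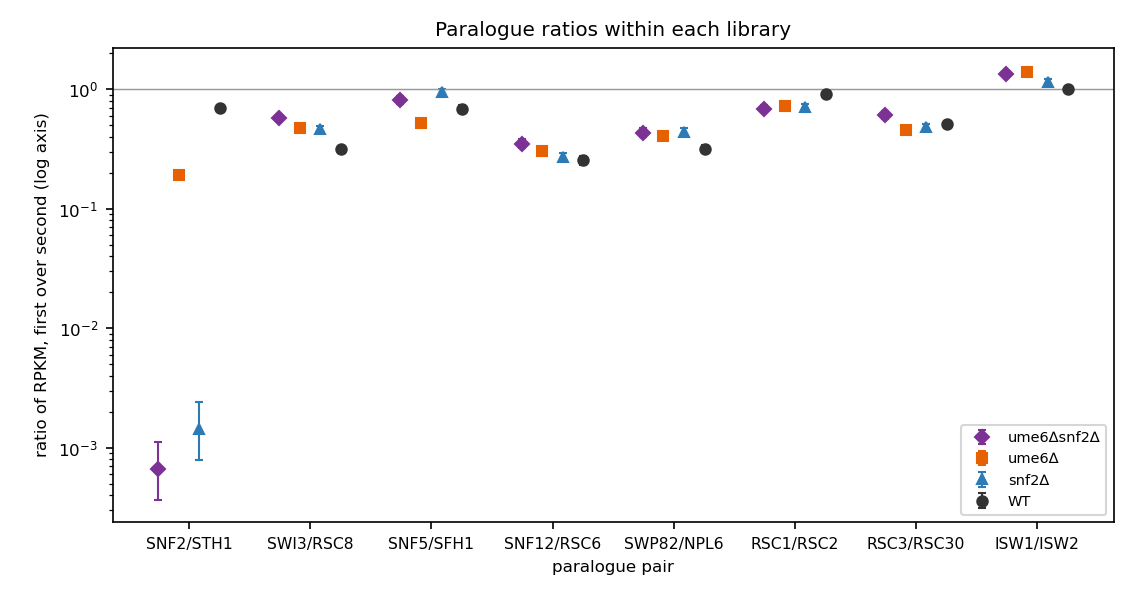
Ratio of RPKM between paralogues, first gene over second, within each library (log axis), with exact 95% counting intervals; libraries run from ume6∆snf2∆ on the left to WT on the right in each pair. SNF2 over STH1 is 0.192 in ume6∆ and 0.697 in WT, and the other pairs lie between 0.254 and 1.4.

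Loss of Snf2 could be read with and without UME6, in comparisons that share no library. The all-gene median of the difference between the effects, without minus with UME6, was 0.48, and that of the members 0.52. This offset depends on library scaling. The all-gene median was 0.35 in ume6∆snf2∆ over ume6∆ and -0.11 in snf2∆ over WT. With median ratio scaling these became 0.0025 and -0.015. SWI1 was the 1 member of 48 with opposite changes of at least 1.5-fold, and 4.94% of all genes had them. HTL1 was at -0.45 in ume6∆snf2∆ over ume6∆ and -1.67 in snf2∆ over WT, RSC30 at -0.75 and -0.71, and IES4 at 0.39 and 0.83. Loss of Ume6 gave 0 members with opposite changes of that size, against 4.16% of all genes. STH1 stood apart from the other members on that axis, at 1.66 in ume6∆snf2∆ over snf2∆ and 0.97 in ume6∆ over WT. After STH1 the highest change in ume6∆snf2∆ over snf2∆ was 0.94, for SWC5, which was at -0.28 in ume6∆ over WT. With 1 library per strain, no interaction was tested.

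**Figure D5:**
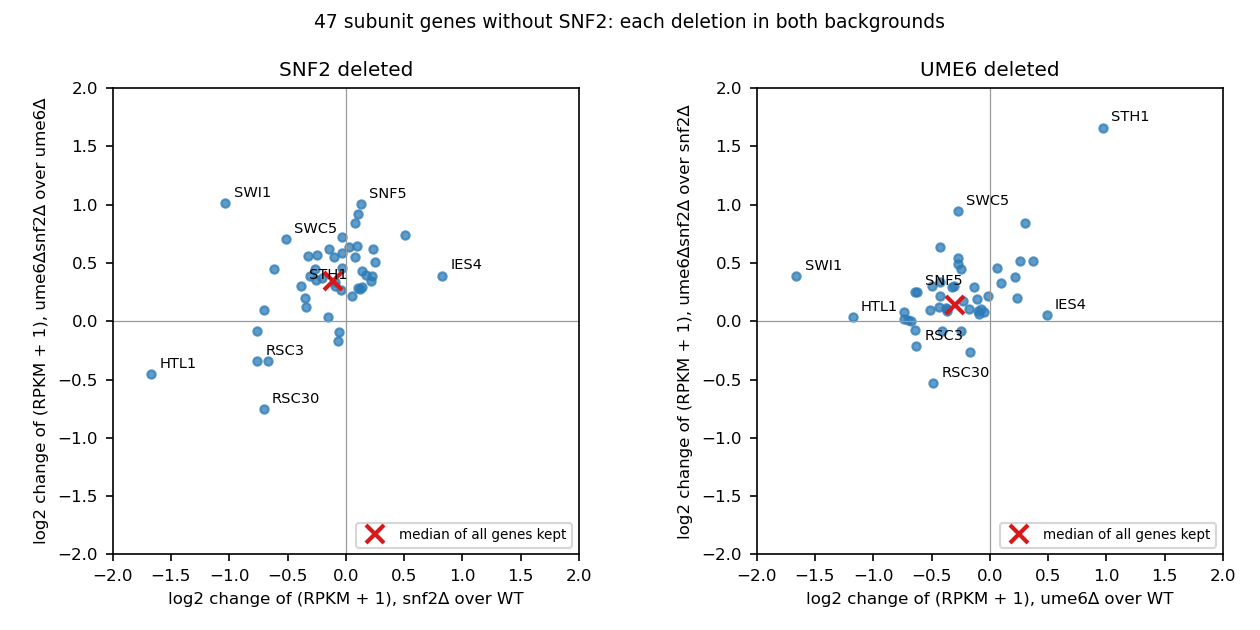
Log2 changes of (RPKM + 1) for 47 genes without SNF2; the left panel plots the change with SNF2 deleted without UME6 (vertical) against the change with UME6 present (horizontal), and the right panel the change with UME6 deleted without SNF2 (vertical) against that with SNF2 present (horizontal). Red crosses mark all-gene medians; SWI1 lies upper left in the left panel at -1.03 and 1.02, and STH1 upper right in the right panel at 0.97 and 1.66.

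Subunits that complete these complexes but are outside the 48 were also counted, 12 genes in all. In ume6∆snf2∆ over WT 3 rose, against 10.4% of all genes, and in ume6∆snf2∆ over ume6∆ 2 rose, against 11.1%. In ume6∆ over WT and in snf2∆ over WT 1 rose each, against 4.59% and 3.31%. In the 5 comparisons 0 fell, against 2.38% to 15.2% of all genes. IES6, an INO80 subunit that works with Arp5, had 156 RPKM in ume6∆snf2∆, 58.6 in ume6∆, 134 in snf2∆ and 50.6 in WT. Both libraries without SNF2 were above both with it, with log2 changes of 1.39 in ume6∆snf2∆ over ume6∆ and 1.38 in snf2∆ over WT. IES5 had 121, 46.5, 96.3 and 51.8 RPKM, and its start is 687 bases from that of MET6, the methionine synthase gene, which had 3459, 1541, 2688 and 214 RPKM. DPB4, a histone-fold protein of the Isw2 complex and of DNA polymerase epsilon, had 78.8 RPKM in ume6∆snf2∆, 71.1 in ume6∆, 48.01 in snf2∆ and 31.6 in WT. RVB1, RVB2, ARP4 and ACT1, which INO80 and SWR1 both contain, neither rose nor fell in any comparison.

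Of 9 other ATPases of the Snf2 family, 0 rose and 2 fell in ume6∆ over WT, against 4.59% and 15.2% of all genes. In ume6∆snf2∆ over ume6∆ 1 rose, against 11.1%. IRC20 had 28.5 RPKM in ume6∆ and 63.4 in WT (log2 -1.13), and RAD54, a recombination motor, had 17.7 in ume6∆ and 36.5 in WT (log2 -1.0). RAD26, of transcription-coupled repair, had 29.4 RPKM in ume6∆snf2∆ and 12.3 in ume6∆ (log2 1.19). RAD54 lay just past the 2-fold threshold. The all-gene median was -0.30 in ume6∆ over WT and 0.35 in ume6∆snf2∆ over ume6∆. With median ratio scaling these medians were -0.0080 and 0.0025, and calls of this list with that scaling are not given. None of the 9 rose or fell in snf2∆ over WT, against 3.31% and 7.96% of all genes. The list ran there from -0.81 for IRC20 to 0.42 for RAD26.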

How the data were processed

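RNA from 1 library per strain was analysed with no replicate, so no p-value is given. The authors deposited gene values in RPKM, and per the labels' protocols RNA came from hot phenol extraction with DNase treatment and TruSeq V2 libraries. Per the submitters' processing notes, CASAVA, STAR 2.4.0 and sacCer3 were used. The counting tool, the annotation and the handling of reads with several places were not given in the sources used here. The authors also deposited splicing efficiency as a fraction per intron, with a formula not given in the sources used here.

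Steps between low RPKM values gave whole reads for 99.2% to 99.6% of values per library (tolerance 0.05 reads), and library scales, in units of 1e6 reads, of 17.4 in ume6∆snf2∆, 30.2 in ume6∆, 25.7 in snf2∆ and 27.7 in WT. The 48 members had medians of 1508, 2042, 1990 and 2312.5 reads in these libraries. A total of 3 lines naming no gene were dropped, 0.0811% to 0.221% of the summed RPKM. Of 6659 genes, 5910 matched the R64 annotation. Changes were differences of log2(RPKM + 1) over the 6520 genes whose mean reached 1 RPKM. Exact 95% Clopper-Pearson intervals used the recovered reads. Promoters were the 300 bases before the start codon, searched on both strands, and protein identity came from global alignment (BLOSUM62, gap costs 11 and 1) of translated R64 coding sequences.

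The members and lists were chosen with earlier results of these data known. Every member is accounted for, and among other genes the most changed of each list are named. Alternatives were other pseudocounts, filters, thresholds, scaling, motifs and windows. Software was Python 3.11.15, numpy 2.4.6, pandas 2.3.3, scipy 1.17.1, matplotlib 3.10.9 and biopython 1.88, and the calculations were tested on simulated data.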

Additional observations from a re-analysis of the deposited data

Results flagged for a closer look

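SWI1, the large Swi/Snf subunit gene, was singled out because its changes on loss of Snf2 ran in opposite directions with and without Ume6. The log2 change was 1.02 in ume6∆snf2∆ over ume6∆ and -1.03 in snf2∆ over WT. Each strain had 1 library, so the difference between these changes was not tested. Opposite changes of at least 1.5-fold were found in 322 of 6520 genes.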

How the results depend on the processing

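With a pseudocount of 5 the number of members changed 2-fold in ume6∆snf2∆ over ume6∆ was 1, and the share of all genes was 8.60%, against 14.6% with a pseudocount of 1. With a threshold of 1.5-fold the numbers were 10 in snf2∆ over WT, 12 in ume6∆ over WT, 16 in ume6∆snf2∆ over WT, 14 in ume6∆snf2∆ over ume6∆ and 4 in ume6∆snf2∆ over snf2∆, of 48 each. The shares of all genes past 1.5-fold were 28.2%, 43.9%, 41.0%, 39.7% and 27.6% in the same order of comparisons. Median ratio scaling moved the member medians to 0.0195 in snf2∆ over WT, -0.0015 in ume6∆ over WT, 0.0361 in ume6∆snf2∆ over ume6∆ and 0.0365 in ume6∆snf2∆ over snf2∆. The longer URS1 sequence was found, as an exact match, in 0 member promoters. Median ratio scaling divides all values of a library by 1 factor, so it moves the genes of a comparison nearly alike. What lies behind the differing factors was not tested. No member went from rising to falling, or the reverse, under any setting run. The split of members called higher and lower did change with median ratio scaling in several comparisons, as given above. Calls of genes outside the 48 are given without that scaling. No paired analysis was possible because each strain had 1 library. Depth limits HTL1 most among the undeleted members, with 90 reads in ume6∆snf2∆, and intervals leave out any spread between cultures.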

Other observations

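Other chromatin complexes were counted in the same way. Of 14 genes of SAGA, the Gcn5 acetyltransferase complex, 1 fell and 0 rose in ume6∆ over WT, against 15.2% and 4.59% of all genes. This was SGF29, with 35.6 RPKM in ume6∆snf2∆, 36.6 in ume6∆, 53.1 in snf2∆ and 94.4 in WT, and it also fell in ume6∆snf2∆ over WT, as did 9.97% of all genes. In ume6∆snf2∆ over ume6∆, SGF73 and SGF11, both of the deubiquitinase module, rose by 1.35 and 1.28 on the log2 scale. There the all-gene median was 0.35, and 11.1% of all genes rose. With median ratio scaling that median was 0.0025, and calls of SAGA genes with that scaling are not given. SGF73 had 49.1 RPKM in ume6∆snf2∆, 18.7 in ume6∆, 45.6 in snf2∆ and 33.0 in WT. SAGA had 0 genes that rose or fell in snf2∆ over WT, against 3.31% and 7.96% of all genes. It also had 0 in ume6∆snf2∆ over snf2∆, against 8.13% and 2.38%.

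Of 8 genes of the NuA4 acetyltransferase, EAF1, its scaffold, had 76.5 RPKM in ume6∆snf2∆, 40.8 in ume6∆, 32.9 in snf2∆ and 38.2 in WT, and was the 1 that rose, in ume6∆snf2∆ over snf2∆, against 8.13% of all genes. Of 16 histone chaperone genes, 2 rose in ume6∆snf2∆ over WT, a share close to the 10.4% of all genes, and 0 fell, against 9.97%. CHZ1, a chaperone for H2A.Z, had 268 RPKM in ume6∆snf2∆, 184 in ume6∆, 148 in snf2∆ and 92.0 in WT, and RLF2, a subunit of chromatin assembly factor CAF-1, had 49.4, 19.5, 27.5 and 21.8 RPKM.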
